A study of Homo sapiens with 6 samples.

Results

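The genes described here belong to the bone morphogenetic protein (BMP), transforming growth factor beta (TGF-beta) and activin pathway. They were the rows of the expression table whose platform symbol matched a fixed set of name patterns for ligands, receptors, SMADs, their ubiquitin ligases, extracellular antagonists and latency proteins. The patterns matched 57 rows, and the brightest row of each symbol was kept, which gave 53 genes of the 14884 symbols named in the table. Symbols alone made the choice, so 4 of the 53 are related by name only: the kinase gene BMP2K, the antisense RNAs ACVR2B-AS1 and INHBA-AS1, and the transcribed pseudogene SMURF2P1-LRRC37BP1. No row bears the names ID1 to ID4, TGFB1 to TGFB3, INHBA, BMPR1A, BMPR2, ACVR1, TGFBR1 or TGFBR2 in the annotation used here, and these genes were not analysed here. ACVRL1 was therefore the only receptor among the members.

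Flp-In HEK293, the line used, derives from human embryonic kidney and has a site where a construct can be integrated. It stably overexpressed TDNC1 (3 arrays) or a random RNA as control (3 arrays), from an inducible system, after pooling of stable clones. Both groups grew in high glucose DMEM with serum, blasticidin and hygromycin, and the labels name neither an added BMP nor an added TGF-beta. Neither the meaning of TDNC1 nor the addition of inducer is stated in the labels. Replicates are labelled biological, but no separate cultures are named, so p-values cover only the spread among these arrays, part of which may be technical.

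BMPs, growth and differentiation factors (GDFs), TGF-betas and activins are secreted dimers that bring type I and type II receptor kinases together at the cell surface. The receptors phosphorylate SMAD proteins. BMP receptors act on SMAD1, SMAD5 and SMAD9, TGF-beta and activin receptors act on SMAD2 and SMAD3, and each of these joins SMAD4 to enter the nucleus and bind DNA. SMAD6 and SMAD7 are inhibitory SMADs that the pathway itself switches on, which makes them a feedback brake. Outside the cell, noggin, chordin, gremlin and follistatin hold ligands away from their receptors, and latent TGF-beta binding proteins (LTBPs) store TGF-beta in the matrix. In the developing kidney BMP7 keeps nephron progenitors alive.

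The short sequences that SMADs bind are shown here for the inhibitory SMAD genes, because these were the members that differed most from array to array. The windows are the 250 bases before the annotated start, from RefSeq on GRCh38.p14, and 41 of the 53 members had such a window in the table. Capitals mark GTCTAGAC, the palindrome bound by SMAD3 and SMAD4, and CAGAC or its reverse complement GTCTG, the short form of that element.
SMAD6, chr15:66701986-66702235, plus strand: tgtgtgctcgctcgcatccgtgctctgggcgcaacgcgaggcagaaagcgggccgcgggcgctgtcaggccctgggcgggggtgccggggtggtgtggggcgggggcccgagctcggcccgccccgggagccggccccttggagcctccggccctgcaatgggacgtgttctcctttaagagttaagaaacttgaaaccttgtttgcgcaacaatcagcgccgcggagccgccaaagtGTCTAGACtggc
SMAD7, chr18:48950966-48951215, minus strand: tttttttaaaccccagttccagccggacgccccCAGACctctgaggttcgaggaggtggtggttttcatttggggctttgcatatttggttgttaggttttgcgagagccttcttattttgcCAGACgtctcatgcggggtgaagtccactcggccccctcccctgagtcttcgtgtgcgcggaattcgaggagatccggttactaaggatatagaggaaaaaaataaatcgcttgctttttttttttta
The palindrome of the SMAD6 window begins 12 bases before the start. GTCTAGAC is its own reverse complement and was found in 64 of 35116 windows of this length, or 0.182%. Among the 63 windows of the 41 members SMAD6 had the 1 match. The SMAD7 window, from the first of 3 annotated starts, holds CAGAC 2 times, beginning 217 and 128 bases before the start. CAGAC or GTCTG was present in 38.0% of all windows and in 34.9% of the members' windows. GGCGCC, the GC-rich element of BMP-responsive genes, is also its own reverse complement and overlaps neither other motif. It was present in 16.4% of all windows and 30.2% of the members' windows, but in neither window printed above. The 63 windows hold several starts of some genes, and 15 of the 41 genes had GGCGCC. No comparison with windows of like GC content was made. A match describes the letters of a window and does not show binding.

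All values are log2 expression on Affymetrix Human Gene 2.0 ST arrays, normalised by RMA, and a difference of 1 is a doubling. Array medians were 5.16 to 5.22, and the number of arrays limits the precision. The 1 row of 53617 with a Benjamini-Hochberg adjusted p under 0.05 in limma was LOC646736, with a mean of 9.73 in TDNC1 and 3.67 in control (adjusted p = 1.829e-05). In control it was a dim row (lower quartile of row means 3.81), so no fold is given. Among common control genes, the change was 0.01 for GAPDH, 0.14 for HPRT1 and -0.28 for TBP. Of 10 marker genes listed for HEK293, 5 were named, and PAX2, EYA1, LHX1, GATA3 and SALL1 lay above 67.0% to 89.9% of rows. Their summed log2 level was 36.9 to 37.6 in TDNC1 and 36.0 to 36.6 in control cells. Of 8 fibroblast genes listed, 3 were named, and DCN, LUM and THY1 lay above 6.12%, 22.1% and 61.4% of rows. Their summed level was 10.9 to 12.3 in TDNC1 and 11.5 to 12.0 in control.

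Over the pathway genes, as over all rows, TDNC1 replicate 3 was the least like its own group. The median absolute difference over the 53 genes was 0.102 between TDNC1 replicates 1 and 2, and 0.144 and 0.169 between them and TDNC1 replicate 3. The same array differed by 0.112 from control replicate 3. Over all rows the difference was 0.134 between TDNC1 replicates 1 and 2, and 0.1875 and 0.1768 between them and TDNC1 replicate 3. It was 0.1358 between TDNC1 replicate 3 and control replicate 3. Values without TDNC1 replicate 3 are given for some genes below, mostly those whose change was larger without it.

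None of the 53 genes passed limma's test over all rows (smallest adjusted p = 0.631), where 0.00187% of rows passed. At an unadjusted p under 0.05, 8 genes (15.1%) differed, against 7.7% of all rows and 7.15% of the brightest rows of named symbols. Of these 8, 6 were higher in TDNC1, a direction found for 3.74% of rows and 4.59% of named symbols, and 2 were lower, found for 3.96% and 2.56%. The groups did not overlap for 13 genes (24.5%), against 13.2% of rows and 15.3% of named symbols. TDNC1 lay above control for 10 of them (18.9%, against 6.48% of rows and 8.95% of named symbols) and below for 3 (5.66%, against 6.7% and 6.36%). The median log2 change was 0.05, with 28 positive and 25 negative values, where the 14884 symbols had a median of 0.003. These counts depended on single arrays. Without TDNC1 replicate 3 none passed, where 0.0429% of rows did. The 8 became 13 (24.5%, against 14.5% of rows and 17.6% of named symbols) without TDNC1 replicate 3, with 8 higher (6.87% of rows) and 5 lower (7.62% of rows). They became 5 without TDNC1 replicate 1 (5.22% of rows) or without control replicate 1 (5.57% of rows), and 4 without TDNC1 replicate 2 (5.02% of rows) or without control replicate 2 (5.47% of rows). The 13 became 27 (50.9%, against 33.3% of rows and 42.0% of named symbols) without TDNC1 replicate 3, 22 without control replicate 1 (21.7% of rows) and 20 without control replicate 3 (26.4% of rows). Fewer arrays by themselves make overlap rarer.

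**Figure D1:**
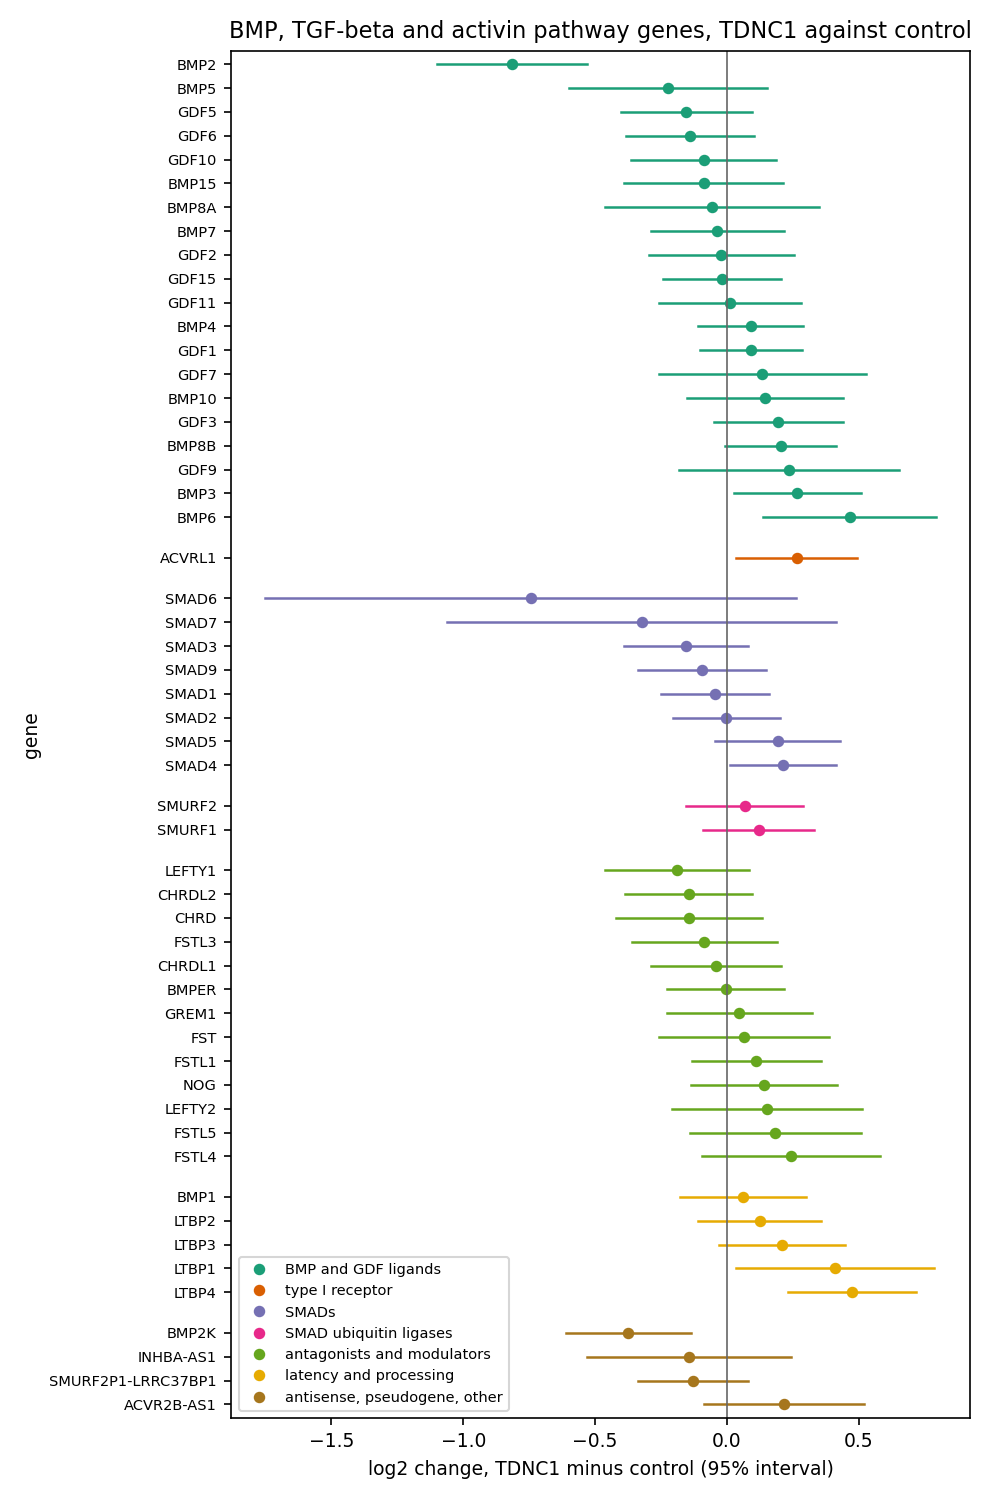
Each point is the log2 change of 1 pathway gene, TDNC1 minus control, with its 95% interval from limma over 3 arrays per group, and colours give the role. BMP2 (-0.82) lies farthest left, SMAD6 and SMAD7 have the widest intervals among the SMADs, and all 5 latency and processing genes lie right of 0.

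Among the ligands, BMP2 had the lowest values in TDNC1 relative to control. BMP2 signals through SMAD1, SMAD5 and SMAD9 and is known for inducing bone. It stood at 5.27, 5.61 and 5.34 in the TDNC1 arrays, against 6.32, 6.24 and 6.10 in the control arrays. The groups did not overlap, and the highest TDNC1 array lay well below the lowest control array. The log2 change was -0.82 (SE 0.12, 95% interval -1.10 to -0.53), or 1.76-fold lower in TDNC1, and it did not pass over all rows (limma adjusted p = 0.631, range 0.114 to 0.919 over the alternatives). Leaving out any 1 array kept the change between -0.91 and -0.75. In bulk RNA, fewer cells that express a gene and less of its RNA per cell cannot be told apart.

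BMP6, a ligand known for controlling iron balance in the liver, had higher values in TDNC1. It stood at 8.26, 8.24 and 7.81 in the TDNC1 arrays, against 7.65, 7.57 and 7.70 in the control arrays. TDNC1 replicates 1 and 2 were high and replicate 3 lay just above the highest control. The change was 0.47 (SE 0.14, unadjusted p = 0.0122, adjusted p = 0.631 in limma), and 0.61 (adjusted p = 0.103) without TDNC1 replicate 3.

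BMP3 is an unusual member of the family that opposes BMP signalling. It stood at 6.85, 6.74 and 6.72 in TDNC1, against 6.49, 6.38 and 6.64 in control, with no overlap and a change of 0.27 (SE 0.10, limma adjusted p = 0.642). BMP8B, a ligand known from heat production in brown fat in mice, stood at 6.92, 6.96 and 6.91 in TDNC1, against 6.64, 6.81 and 6.73 in control, a change of 0.20 (SE 0.089, limma adjusted p = 0.646). Its near-identical neighbour BMP8A did not show the same pattern. It had 7.23, 7.08 and 6.72 in TDNC1, against 7.22, 6.79 and 7.18 in control, with wide overlap, and the probes may not tell the copies apart.

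Among the other ligands, BMP4, the nearest relative of BMP2, stood at 6.77, 6.75 and 6.68 in TDNC1, against 6.65, 6.61 and 6.66 in control. The BMP4 groups did not overlap, and the change was 0.09 (95% interval -0.11 to 0.29). BMP7, the nephron progenitor factor, had a change of -0.04 (95% interval -0.29 to 0.22). GDF11, a relative of myostatin and 1 of the 2 brightest ligand rows, stood at 7.39, 7.54 and 7.72 in TDNC1, against 7.45, 7.63 and 7.53 in control, and the groups overlapped. GDF15, a stress-induced hormone that acts on the brain, had a change of -0.02 (95% interval -0.24 to 0.21).

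Of the 20 ligand genes 10 had positive and 10 negative changes, with a median of -0.003. At an unadjusted p under 0.05, 2 were higher (BMP6 and BMP3) and 1 lower (BMP2), where 7.7% of all rows passed. The groups did not overlap for 7, against 13.2% of rows and 15.3% of named symbols. TDNC1 lay above control for 6 of these, BMP6, BMP3, BMP8B, BMP4, GDF1 and GDF3, and below only for BMP2. GDF3, an early embryonic factor, was a dim row, with 2.11 to 2.30 in TDNC1 and 1.91 to 2.11 in control, where the lower quartiles of the arrays started at 3.77. GDF1 shares a transcript with CERS1, so its row may read both. BMP5, BMP10, BMP15, GDF2, GDF5, GDF6, GDF7, GDF9 and GDF10 had changes between -0.22 and 0.24, with overlap in each.

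ACVRL1 (ALK1) is the type I receptor for BMP9 and BMP10 and is best known from blood vessel lining. It stood at 5.53, 5.66 and 5.61 in TDNC1, against 5.27, 5.27 and 5.46 in control. All TDNC1 arrays lay above all control arrays, with control replicate 3 nearest to them. The change was 0.26 (SE 0.10, 95% interval 0.035 to 0.49, limma adjusted p = 0.637), and 0.26 (adjusted p = 0.360) without TDNC1 replicate 3. BMP10 itself had 0.15 (SE 0.13), and GDF2, which encodes BMP9, had -0.02 (SE 0.12). The endothelial markers VWF, PECAM1 and KDR, named of 4 listed, had changes of 0.04 each, and their summed log2 level was 13.52 to 13.93 in TDNC1 and 13.4 to 13.7 in control.

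**Figure D2:**
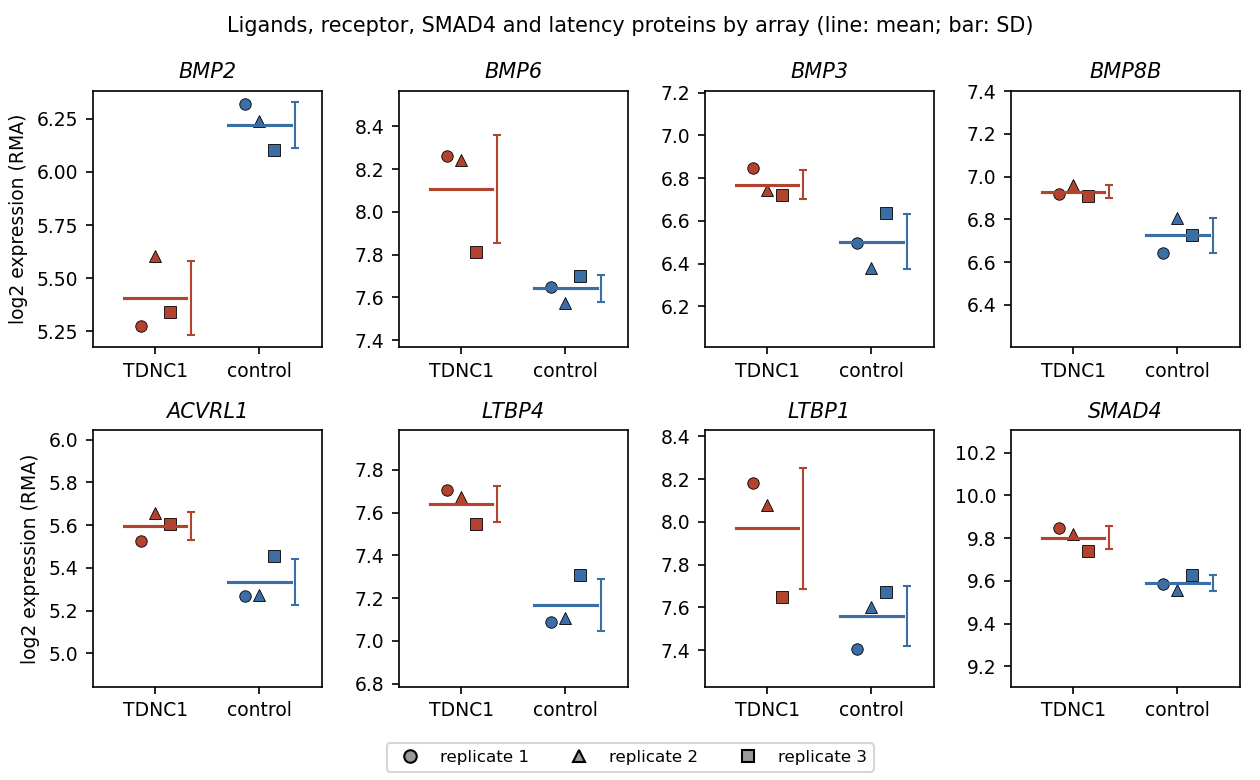
Log2 expression (vertical axis, a separate scale for each gene) of 8 pathway genes in the 3 TDNC1 and 3 control arrays, with marker shape for the replicate number, a line for the mean and a bar for the SD. BMP2 is lower in all TDNC1 arrays, and in BMP6 and LTBP1 the square of TDNC1 replicate 3 lies near the controls.

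Among the SMADs, the inhibitory genes had the lowest changes, and SMAD4 and SMAD5 had the highest. SMAD6, which mainly restrains BMP receptors, stood at 6.002, 5.89 and 7.46 in TDNC1, against 6.83, 7.11 and 7.64 in control. TDNC1 replicates 1 and 2 lay below every control, while TDNC1 replicate 3 lay among the controls, 1.51 above the mean of the other TDNC1 arrays. Control replicate 3 also lay 0.67 above the mean of the other controls. The change was -0.74 (SE 0.43, 95% interval -1.75 to 0.26, limma adjusted p = 0.690) with all arrays. Without TDNC1 replicate 3 it was -1.25 (SE 0.24, unadjusted p = 0.00215, adjusted p = 0.126), or 2.38-fold lower in TDNC1. Leaving out TDNC1 replicate 2 gave -0.46.

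SMAD7, which restrains both TGF-beta and BMP receptors, had the same arrays at its extremes. It stood at 6.51, 6.80 and 7.63 in TDNC1, against 7.02, 7.15 and 7.75 in control, so both arrays numbered 3 were high and TDNC1 replicates 1 and 2 were lowest. The change was -0.32 (SE 0.31, limma adjusted p = 0.8001), and -0.65 (SE 0.24, adjusted p = 0.3085) without TDNC1 replicate 3. Leaving out TDNC1 replicate 1 gave -0.09, and leaving out control replicate 3 gave -0.10.

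SMAD4, the shared partner of all receptor-activated SMADs, stood at 9.85, 9.82 and 9.74 in TDNC1, against 9.58, 9.56 and 9.63 in control. The groups did not overlap, and the change was 0.21 (SE 0.0855, 95% interval 0.0115 to 0.41, limma adjusted p = 0.646). SMAD5, a BMP-activated SMAD, stood at 8.86, 8.87 and 8.68 in TDNC1, against 8.59, 8.70 and 8.53 in control. Its groups overlapped only through TDNC1 replicate 3, and the change was 0.19 (SE 0.10, limma adjusted p = 0.674), and 0.26 (unadjusted p = 0.0398, adjusted p = 0.3185) without it.

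The remaining SMADs had changes between -0.15 and -0.002 with all arrays. SMAD3, which carries TGF-beta signals, stood at 5.27, 5.38 and 5.54 in TDNC1, against 5.53, 5.56 and 5.56 in control, a change of -0.15 (SE 0.10). Its groups overlapped only through TDNC1 replicate 3. Without that array the SMAD3 change was -0.22 (SE 0.09, unadjusted p = 0.0503, limma adjusted p = 0.346). SMAD9, a BMP-activated SMAD, had 8.67, 8.58 and 8.38 in TDNC1, against 8.62, 8.65 and 8.64 in control, with replicate 3 the low TDNC1 array. Its change was -0.09, and -0.012 without that array. SMAD1, the third BMP-activated member, had 5.94, 5.86 and 5.96 in TDNC1, against 6.002, 5.90 and 5.99 in control. Its change was -0.05 (95% interval -0.25 to 0.16), and the groups overlapped. SMAD2, the other TGF-beta-activated member, had 8.74, 8.70 and 8.66 in TDNC1, against 8.65, 8.70 and 8.76 in control, and its change of -0.002 (95% interval -0.21 to 0.20) turned positive when either array numbered 3 was left out. Of the 8 SMADs 2 had positive and 6 negative changes, with a median of -0.07. The ubiquitin ligases that mark SMADs and receptors for destruction had changes of 0.12 (SMURF1, SE 0.09) and 0.07 (SMURF2, SE 0.09). SMURF1 stood at 7.79, 7.73 and 7.66 in TDNC1, against 7.54, 7.60 and 7.67 in control, with overlap. SMURF2 stood at 9.14, 8.93 and 9.02 in TDNC1, against 8.99, 8.98 and 8.92 in control, with overlap too.

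The latency and processing genes were the role whose 5 members all had positive changes (median 0.21). LTBP4, which holds latent TGF-beta and assembles elastic fibres, stood at 7.71, 7.67 and 7.55 in TDNC1, against 7.09, 7.11 and 7.31 in control. All TDNC1 arrays lay above all control arrays, and the arrays numbered 3 were the nearest to each other. The change was 0.47 (SE 0.10, 95% interval 0.23 to 0.72, unadjusted p = 0.00244, limma adjusted p = 0.631). Without TDNC1 replicate 3 it was 0.52 (unadjusted p = 0.00326, adjusted p = 0.141 in limma).

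LTBP1, which covalently binds the TGF-beta propeptide and ties it to the matrix, stood at 8.18, 8.08 and 7.65 in TDNC1, against 7.40, 7.60 and 7.67 in control. TDNC1 replicates 1 and 2 were high, and replicate 3 lay below control replicate 3. The change was 0.41 (SE 0.16, limma adjusted p = 0.643), and 0.57 (adjusted p = 0.138) without TDNC1 replicate 3. LTBP3, known from skeletal and tooth development, stood at 7.18, 7.36 and 7.26 in TDNC1, against 7.16, 6.94 and 7.06 in control, separated by a narrow margin with a change of 0.21 (SE 0.10). LTBP2, which does not bind TGF-beta and belongs to microfibrils, had 0.13 (SE 0.10), with 6.53, 6.43 and 6.36 in TDNC1, against 6.41, 6.21 and 6.32 in control. A dimmer row of LTBP2 had 0.21. BMP1, a protease that cleaves chordin and procollagen and is no ligand, had 6.64, 6.50 and 6.63 in TDNC1, against 6.54, 6.40 and 6.64 in control, a change of 0.06 (SE 0.10).

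Of the 13 extracellular antagonists and modulators, 7 had positive and 6 negative changes (median 0.05, from -0.19 to 0.24). The groups overlapped in all 13, where they did not overlap for 13.2% of all rows and 15.3% of named symbols. None of the 13 had an unadjusted p under 0.05 in limma, against 7.7% of all rows. The members with the smallest p were FSTL4, LEFTY1, CHRDL2 and FSTL5. LEFTY1, an inhibitor of Nodal, stood at 5.11, 5.24 and 5.48 in TDNC1, against 5.43, 5.47 and 5.50 in control, a change of -0.19 (SE 0.12). Its close copy LEFTY2 had 0.15 (SE 0.15), and the probes may not tell them apart. The follistatin-like gene FSTL4 stood at 6.63, 6.54 and 6.28 in TDNC1, against 6.01, 6.29 and 6.41 in control, a change of 0.24 (SE 0.14).

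The chordin-like gene CHRDL2 had 5.75, 5.69 and 5.89 in TDNC1, against 5.80, 6.001 and 5.96 in control. FSTL5 was a dim row, with 3.55, 3.65 and 3.25 in TDNC1, against 3.21, 3.21 and 3.47 in control. In FSTL4, LEFTY1, FSTL5 and CHRDL2, TDNC1 replicate 3 lay on the control side of the other TDNC1 arrays. Without it the unadjusted p of FSTL4, LEFTY1 and FSTL5 were 0.0491, 0.0214 and 0.0465 (limma adjusted p 0.342, 0.261 and 0.335). That of CHRDL2 was 0.1003 (adjusted p 0.447). FSTL4, LEFTY1 and FSTL5 were 3 of the 13 genes of this role, where 14.5% of all rows and 17.6% of named symbols had an unadjusted p under 0.05 without that array. FSTL1, a secreted glycoprotein and the brightest row of this role, had 7.49, 7.47 and 7.47 in TDNC1, against 7.31, 7.24 and 7.53 in control. Noggin (NOG), which caps BMP2 and BMP4, had 6.52, 6.73 and 6.61 in TDNC1, against 6.29, 6.59 and 6.56 in control, a change of 0.14 (95% interval -0.13 to 0.42). Chordin (CHRD) had -0.14, gremlin (GREM1) 0.05, follistatin (FST) 0.07 and BMPER -0.0045, each with an SE between 0.09 and 0.14.

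Of the 4 members related by name, BMP2K had the clearest difference. It encodes a kinase named for its induction by BMP2 in bone precursor cells of mice and is no part of the receptor cascade. It stood at 7.66, 7.82 and 7.87 in TDNC1, against 8.19, 8.22 and 8.06 in control, with no overlap, as for BMP2. Its change was -0.37 (SE 0.10, 95% interval -0.61 to -0.14, limma adjusted p = 0.631). The pseudogene SMURF2P1-LRRC37BP1 had 9.48, 9.44 and 9.52 in TDNC1, against 9.56, 9.57 and 9.69 in control, a change of -0.13 in its brightest row. It carries SMURF2 sequence, its 2 dimmer rows had 0.135 and -0.06, and the probes may read SMURF2 as well. The antisense RNA ACVR2B-AS1 had 5.23, 5.51 and 5.18 in TDNC1, against 5.26, 5.05 and 4.96 in control. INHBA-AS1 had 4.22, 4.20 and 4.25 in TDNC1, against 4.69, 4.37 and 4.03 in control, so its control arrays spanned the TDNC1 values.

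Genes that respond to the pathway, from lists that hold no member, gave 0 calls over all rows. Of 16 BMP target genes, all named, 11 had negative and 5 positive changes, with a median of -0.16. HAMP, the iron hormone that BMP6 induces in liver, was the 1 of these 16 with an unadjusted p under 0.05, against 7.7% of all rows. It stood at 6.66, 6.66 and 6.54 in TDNC1, against 6.96, 6.77 and 6.87 in control, a change of -0.25 (SE 0.10, unadjusted p = 0.0363, limma adjusted p = 0.643). Without TDNC1 replicate 3 the HAMP change was -0.20 (unadjusted p = 0.0866 in limma). GATA2, a transcription factor, stood at 5.63, 5.43 and 5.79 in TDNC1, against 5.82, 5.92 and 5.81 in control, a change of -0.23 (SE 0.11). ATOH8, a helix-loop-helix factor, went the other way, with 4.79, 4.77 and 4.72 in TDNC1, against 4.58, 4.61 and 4.61 in control, a change of 0.16 (SE 0.08). The other positive changes were 0.32 (SE 0.30) for HEY1, the highest of the 16, 0.21 (SE 0.11) for SP7, 0.05 for TBX2 and 0.02 for STAB2.

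The homeobox gene DLX5, a bone and limb regulator, had TDNC1 replicates 1 and 2 lowest and both arrays numbered 3 highest, as in SMAD6. It stood at 6.74, 6.75 and 7.61 in TDNC1, against 7.33, 7.45 and 7.68 in control, a change of -0.45 (SE 0.24, limma adjusted p = 0.680) that was -0.74 (SE 0.13, adjusted p = 0.113) without TDNC1 replicate 3. DLX2 and MSX2, chosen after their values were seen, are further homeobox targets. DLX2 had 7.82, 7.83 and 8.87 in TDNC1, against 8.36, 8.52 and 8.80 in control. MSX2 had 6.31, 6.61 and 7.04 in TDNC1, against 6.87, 6.66 and 7.17 in control. BAMBI, a decoy receptor and feedback inhibitor, had 7.82, 8.05 and 8.76 in TDNC1, against 8.18, 8.20 and 8.70 in control.

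This order, with TDNC1 replicates 1 and 2 the lowest arrays and both arrays numbered 3 the highest, was chosen for description after the values were seen. It was present in 6 of the 16 BMP target genes (BAMBI, DLX2, DLX5, GATA3, MSX2 and TBX3), or 37.5%, and absent in the other 10. The share was alike, 36.4%, in the 11 named TGF-beta and activin target genes, where JUNB, SNAI1, SNAI2 and THBS1 had the order. Among the 53 pathway genes SMAD6, SMAD7, BMP7 and LEFTY1 had this order, or 7.55%, against 3.62% of all rows and 5.77% of named symbols. Without TDNC1 replicate 3 the change of DLX2 was -0.73, against -0.39 with all arrays, and that of MSX2 was -0.44, against -0.25. The change of BAMBI was -0.15 (SE 0.26), and -0.43 without TDNC1 replicate 3. It turned positive without TDNC1 replicate 1 or without control replicate 3. Without TDNC1 replicate 3, 5 of the 16 BMP target genes had an unadjusted p under 0.05, all lower in TDNC1, against 7.62% of rows called lower that way. The part of the arrays numbered 3 in these values was not tested.

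**Figure D3:**
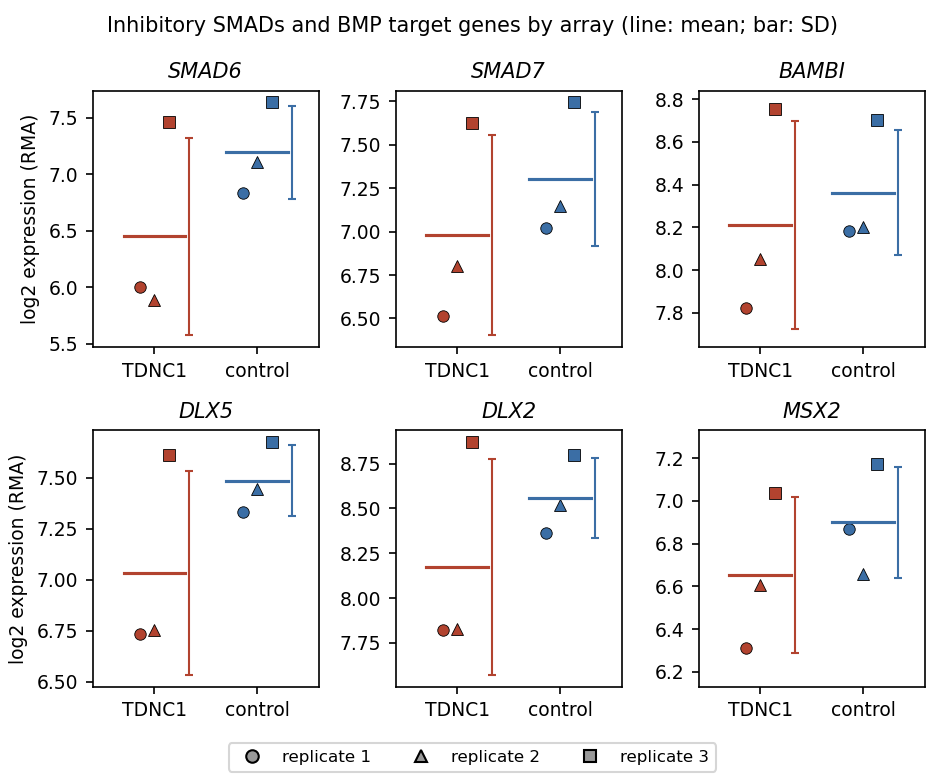
Log2 expression (vertical axis, a separate scale for each gene) of SMAD6, SMAD7 and 4 BMP target genes in the 3 TDNC1 and 3 control arrays, with marker shape for the replicate number, a line for the mean and a bar for the SD. In these 6 genes the square of replicate 3 is the highest array in both groups, and TDNC1 replicates 1 and 2 are the lowest arrays. DLX2 and MSX2 were chosen after their values were seen, and 6 of all 16 BMP target genes have this order.

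Of 20 TGF-beta and activin target genes, 11 were named, 6 of them with negative and 5 with positive changes (median -0.08). None had an unadjusted p under 0.05 in limma, against 7.7% of all rows. Without TDNC1 replicate 3, 9 were negative and 2 positive (median -0.16), and 2, JUNB and SNAI2, had an unadjusted p under 0.05, against 14.5% of rows. With all arrays, those with the smallest p were THBS1, a matrix protein that activates TGF-beta (-0.21, SE 0.15), JUNB, an AP-1 subunit (-0.29, SE 0.25), and the repressors of the epithelial state SNAI2 (-0.23, SE 0.22) and SNAI1 (-0.21, SE 0.20). JUNB stood at 6.92, 6.86 and 7.67 in TDNC1, against 7.32, 7.20 and 7.79 in control, again with both arrays numbered 3 highest. CCN2 and KLF10 also had both arrays numbered 3 highest, but a control array was their lowest. Their changes were 0.12 (SE 0.51) and 0.22 (SE 0.32), and -0.39 and -0.06 without TDNC1 replicate 3. Without TDNC1 replicate 3 the changes were -0.55 for JUNB, -0.45 for SNAI2, -0.38 for SNAI1 and -0.30 for THBS1.

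Among 24 other ligands and extracellular modulators, 18 were named and 12 had positive changes (median 0.04). THBS1 was counted here and among the TGF-beta targets. FURIN, the protease that matures TGF-beta and BMP precursors, stood at 8.38, 8.24 and 8.21 in TDNC1, against 7.94, 7.98 and 8.14 in control, a change of 0.26 (SE 0.10, limma adjusted p = 0.643). MSTN, which encodes the muscle growth inhibitor myostatin, had 4.21, 4.26 and 4.26 in TDNC1, against 3.91, 4.09 and 3.997 in control, a change of 0.24 (SE 0.09). Without TDNC1 replicate 3 the unadjusted p of MSTN in limma was 0.0556, against 0.0311 with all arrays. TWSG1, a partner of chordin, had 0.15 (SE 0.0845). The groups did not overlap in these 3 of the 18 genes, against 13.2% of rows and 15.3% of named symbols. MSTN was a rather dim row, above 30.2% of rows. FBN1, the fibrillin that anchors LTBPs, had 0.25 (SE 0.16), with 6.84, 6.84 and 6.28 in TDNC1, against 6.43, 6.44 and 6.35 in control, and its replicate 3 lay below the controls. Without that array the change was 0.44 (unadjusted p = 0.003086, limma adjusted p = 0.1388).

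Of 11 other receptors and co-receptors, 5 were named, and BAMBI among them was also counted as a BMP target. CRIM1, a transmembrane protein that binds BMPs, had 0.25 (SE 0.12), endoglin (ENG) 0.09 and neogenin (NEO1) 0.07. The change of ENG turned negative when control replicate 3 was left out. Of 30 intracellular regulators, 17 were named, with 12 positive and 5 negative changes (median 0.04). SKIL and TGIF1 were counted here and among the TGF-beta targets. None of the 17 had an unadjusted p under 0.05 in limma, against 7.7% of all rows. TAB1, which activates the kinase TAK1, stood at 7.79, 7.66 and 7.67 in TDNC1, against 7.43, 7.50 and 7.55 in control, a change of 0.21 (SE 0.09). FOXH1, the DNA-binding partner of SMAD2 in activin signalling, had -0.12 (SE 0.089), the SMAD repressor SKI 0.13 (SE 0.10) and the pocket protein gene RBL1 0.14 (SE 0.11).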

How the data were processed

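Total RNA was extracted with Trizol and purified on RNeasy columns with DNase I, per the labels' protocols. The deposited log2 values come from RMA (robust multi-array average) as run in Affymetrix Power Tools, according to the submitters' processing notes. Neither its version nor a genome build is named there. RMA forces 1 probe distribution on all arrays, which would hide a shift of most transcripts, and it understates differences of dim rows. Of 53617 rows, 16098 have 1 gene symbol in the platform annotation and 37519 are unnamed here. The symbols of all 53 members matched current RefSeq symbols.

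The comparison of TDNC1 with control used lmFit and eBayes of limma 3.58.1 (R 4.3.3, two-sided) on all 53617 rows and 6 arrays without covariates, with Benjamini-Hochberg adjustment over all rows and a threshold of 0.05. The fit was tested on simulated data. Changes are TDNC1 minus control, errors are SD of 3 arrays or SE from limma.

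The members, role groups and lists were chosen with earlier results of these data known. Array values are given for BMP2, the SMADs, and per role the 4 members with the smallest p and the 2 brightest, and other pathway lists gave up to 4 genes each. Array values of BMP1, BMP4, BMP8A, DLX2 and MSX2 are outside this rule. Alternatives left out each array or both arrays numbered 3, used the replicate number as a block, array weights, trended and robust variances, a filter on dim rows, renewed quantile normalisation, or the mean of all rows of a symbol.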

Additional observations from a re-analysis of the deposited data

How the results depend on the processing

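Over 13 alternatives, 0 of the 53 pathway genes passed limma's adjusted threshold in any, with 4 to 14 genes at an unadjusted p under 0.05. The 14 came without both arrays numbered 3, where 8035 of 53617 rows reached that level. The 4 came without TDNC1 replicate 2 or without control replicate 2, where 5.02% and 5.47% of rows did. Of 52 genes followed singly, 47 kept their direction in every alternative and 5 did not. The number of rows called was 1, and ran from 1 to 23 when single arrays were left out (23 without TDNC1 replicate 3, 2 without control replicate 3). The members' median log2 change of 0.05 ran from -0.002 (without control replicate 2) to 0.0629 when single arrays were left out, and was 0.0633 without both arrays numbered 3. The count of members whose groups do not overlap, 13, ran from 16 to 27 when single arrays were left out. The 27, or 50.9%, came without TDNC1 replicate 3, where the groups did not overlap for 33.3% of all rows. The count was 30 without both arrays numbered 3, where fewer arrays make overlap rarer. The share over all rows was not taken for the 16 or the 30, so neither is read as a trait of the members. Leaving out single arrays turned the sign of GDF11 (range -0.0717 to 0.0917), SMAD2 (-0.0303 to 0.0255), INHBA-AS1 (-0.3095 to 0.0192), BAMBI (-0.4251 to 0.0409) and ENG (-0.0191 to 0.153). GDF11 was -0.0183 and SMAD2 0.0117 with array weights, and GDF11 was -0.0757, SMAD2 0.0455 and ENG -0.0752 without both arrays numbered 3; the cause was not tested. Over all rows, the deviations of same-numbered arrays had correlations of 0.036, -0.0013 and 0.047, although single genes such as SMAD6 were high in both arrays numbered 3, and TDNC1 replicate 2 correlated best with control replicate 1. With the replicate block, 1 row and 0 members passed. At an unadjusted p under 0.05 the block left 7 members and 4106 of 53617 rows, against 8 members and 4129 rows without it. BMP3, SMAD4 and LTBP1 then missed that level (p 0.0566, 0.0787 and 0.0661), and SMAD6 and SMAD7 reached it (p 0.0176 and 0.0386). The files used here give no detection level, and 2 of 53 members lie below the lower quartile of rows.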
